A study of Rattus norvegicus with 28 samples.

Results

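Skeletal muscle secretes peptides that act on nerve, immune cells and other tissues. Here 9 genes for such factors or for their receptors were followed through prolonged neuromuscular blockade in the rat. They were the secreted factors Ostn, Il15, Il6, Lif, Bdnf, Ntf3 and Gdnf and the receptors Ngfr and Gfra1. They were chosen by gene symbol in the annotation of the array table, and each was measured by 1 probe set, so 9 of 26208 probe sets and 9 of 19506 distinct symbols are described. None of the 9 is marked as cross-hybridising in that annotation, against 2291 marked probe sets in the table.

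A motor nerve and the muscle it reaches depend on each other. Neurotrophins and GDNF made by muscle are taken up by nerve endings, where they bind receptors on motor and sensory neurons, and the same receptors are also found on Schwann cells. Cytokines of the interleukin-6 family share the signalling chain gp130 (Il6st), whereas interleukin 15 signals through the common gamma chain (Il2rg). Osteocrin, also called musclin, is a small peptide of muscle and bone that binds the clearance receptor of the natriuretic peptides (Npr3).

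RNA came from the proximal gastrocnemius, a calf muscle, of 28 female Sprague-Dawley rats whose age is not given in the labels used here. The 5 control rats were sham-operated, and by the study's methods they breathed spontaneously under isoflurane, were not paralysed and were killed shortly after surgery. The other 23 rats were anaesthetised with isoflurane, mechanically ventilated and paralysed with α-cobrotoxin, a snake venom peptide that occupies muscle acetylcholine receptors, given as a 100 µg bolus and then 250 µg per day. They formed 3 groups by duration of the intervention, 13 rats at 0.25-4d (from 6 h), 4 at 5-8d and 6 at 9-14d. Ventilation, blockade, long anaesthesia and time came together in these rats and cannot be told apart. The source descriptions of the 5 controls also mention the blocker and ventilation, against their titles and sample type, which were followed. The middle group is given with a different last day in the series' design text than in each sample's label, and the sample labels were used.

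The deposited table holds a log2 change against the controls for each of the 3 durations and no value for a single rat, so neither levels nor the overlap of single rats can be shown, and the presence of the labelled tissue cannot be checked from levels of its markers. Each change below is a mean log2 difference with its standard error (SE) or 95% confidence interval. Both give the precision of that difference, set by the spread between rats and their numbers. Adjusted p-values against the controls are those of the fit in limma, by Benjamini-Hochberg over all 26208 probe sets. Unadjusted p-values, SEs, intervals and all comparisons between durations were rebuilt from that fit. Called, here, means an adjusted p below 0.05 together with a change of 2-fold or more. By this rule 0.549% of all probe sets were called in either direction at 0.25-4d. The share was 5.21% at 5-8d and 5.12% at 9-14d. Of the 9 genes 0, 1 and 2 were called at these durations, and 2, 3 and 2 had an unadjusted p under 0.05, as did 16.8%, 36.1% and 46.0% of all probe sets. In bulk muscle, fewer cells that express a gene and less of its RNA per cell cannot be told apart.

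Before the changes, the proximal promoters of the 2 cytokines Il15 and Il6 are shown, since Il15 was called changed and Il6, another cytokine of muscle, was not. The sequences are the 250 bases before the start site in the RefSeq annotation of GRCr8, 5′ to 3′ on the gene's own strand, and capitals mark matches to the 9 motifs searched on both strands. The promoter table held 6 of the 9 genes, and no promoter of Ostn, Lif or Ngfr was used here.
Il15, chr19:42544456-42544705, plus strand: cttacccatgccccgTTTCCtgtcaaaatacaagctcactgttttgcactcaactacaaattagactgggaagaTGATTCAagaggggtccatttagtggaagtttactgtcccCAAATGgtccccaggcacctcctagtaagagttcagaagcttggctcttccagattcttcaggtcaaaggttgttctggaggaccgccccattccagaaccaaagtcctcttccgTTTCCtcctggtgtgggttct
Il6, chr4:5894576-5894825, minus strand: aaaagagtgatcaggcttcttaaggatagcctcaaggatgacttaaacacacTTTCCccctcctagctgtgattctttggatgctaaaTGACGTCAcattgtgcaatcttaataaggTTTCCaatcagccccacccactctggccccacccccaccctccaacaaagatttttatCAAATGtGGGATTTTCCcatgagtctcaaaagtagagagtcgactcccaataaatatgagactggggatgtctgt
The Il15 window holds an E-box (CANNTG) that begins 136 bases before the start site, and the core letters of NFAT sites (GGAAA, read on the other strand) at 235 and 21 bases. At 176 bases it matches TGANTCA, a pattern searched for AP-1 that allows any base at its centre. That base is T here, where the AP-1 consensus has G or C, so the match is to the wider pattern only. The Il6 window holds an E-box at 75 bases, GGAAA at 198, 133 and 63 bases, a cAMP response element (TGACGTCA) at 162 bases and an NF-kB consensus at 68 bases, which overlaps the last GGAAA. Of 33469 promoter windows of the same length, 65.5% hold CANNTG, 56.9% GGAAA, 6.34% TGANTCA, 1.59% TGACGTCA and 6.33% the NF-kB consensus. The STAT motif (TTCNNNGAA), the FoxO core (GTAAACA), the MEF2 consensus and the CArG box, present in 7.67%, 3.21%, 2.96% and 1.5% of all windows, did not match in either sequence. Such matches describe the letters of the windows and not binding.

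Ostn had the largest changes of the 9 genes. Its probe set lies on chromosome 11 of RGSC 3.4, the build of the table, at 75428600-75455382 on the minus strand. At 0.25-4d its log2 change was -1.03 (95% interval -2.30 to 0.23), with an adjusted p of 0.424 in limma. At 5-8d Ostn was down-regulated 28.4-fold (log2 change -4.83, SE 0.79, 4 rats against 5 controls), with an adjusted p of 3.77e-05 in limma. At 9-14d it was 19.6-fold lower, with a log2 change of -4.29 (SE 0.71, 6 rats against 5 controls) and an adjusted p of 3.01e-05 in limma. Counted from the lowest of the 26208 probe sets, Ostn ranked 2 at 5-8d and 4 at 9-14d.

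The differences between the durations were tested directly. Between durations, 2.68% of all probe sets were called for 5-8d against 0.25-4d, 0.21% for 9-14d against 5-8d and 3.32% for 9-14d against 0.25-4d, and of the 9 genes 2, 0 and 2 were called, with 4, 1 and 2 at an unadjusted p under 0.05, which 31.8%, 13.2% and 45.9% of all probe sets had. Ostn was 13.9-fold lower at 5-8d than at 0.25-4d (log2 difference -3.80, SE 0.67, adjusted p 0.000111 in the rebuilt moderated statistic). This was the lowest difference of all probe sets in that comparison. At 9-14d Ostn was 9.57-fold lower than at 0.25-4d (-3.26, SE 0.58, adjusted p 6.72e-05). From 5-8d to 9-14d the difference was 0.54 with an interval of -1.01 to 2.09 (adjusted p 0.811), which spans a 2-fold shift in either direction. Rats of the same group differed more in Ostn than in most genes, with a within-group SD of 1.17 on the log2 scale, at the 99.9 percentile of all probe sets. This SD, here and below, is the moderated one of the fit, pooled over the groups and drawn toward a common prior value.

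Il15 lay above the controls at 0.25-4d and below them at the later durations, and only its lower value at 9-14d was called. This cytokine, which sustains natural killer cells and memory T cells and is made by muscle fibres, is measured on chromosome 19 at 27432935-27499255 on the plus strand, and 16 of the 31 probes of its probe set match the RefSeq transcript. At 0.25-4d its log2 change was 0.56 (interval 0.16 to 0.96), which is 1.47-fold higher with an unadjusted p of 0.00738 and an adjusted p of 0.112 in limma. With Benjamini-Hochberg adjustment over the 3 comparisons with the controls together, the adjusted p of this change was 0.0378. At 5-8d the log2 change was -0.53 (interval -1.03 to -0.02), with an unadjusted p of 0.042 and an adjusted p of 0.121. At 9-14d Il15 was down-regulated 2.05-fold (log2 -1.04, SE 0.22, adjusted p 0.000664), just past the fold change minimum. Centred on the median of all probe sets, this change was -0.96 with an adjusted p of 0.00129, below that minimum.

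Against the first group of rats, Il15 was called lower at both later durations. It was 2.12-fold lower at 5-8d than at 0.25-4d (log2 difference -1.09, SE 0.21, adjusted p 0.000334 in the rebuilt moderated statistic). It was 3.02-fold lower at 9-14d than at 0.25-4d (-1.59, interval -1.97 to -1.22, adjusted p 6.66e-08), which ranked 87 from the lowest of all probe sets. From 5-8d to 9-14d the difference was -0.51 (interval -0.996 to -0.02, unadjusted p 0.0409, adjusted p 0.349), so these neighbours in the order were not separated after adjustment. The within-group SD of Il15 was 0.368, at the 90.9 percentile.

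**Figure D1:**
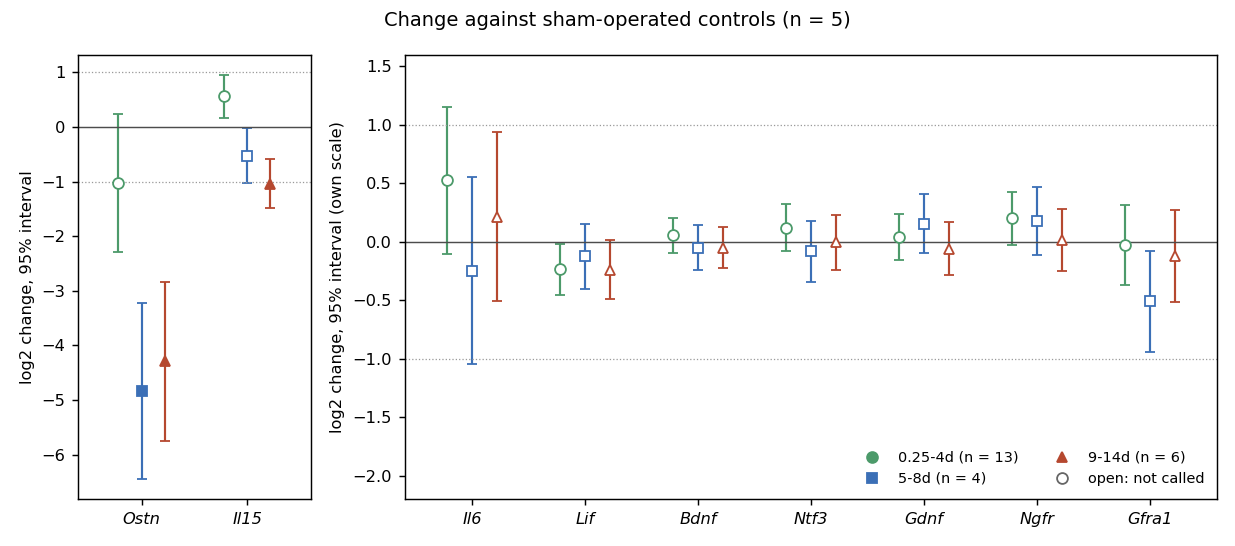
Mean log2 change of each gene against the 5 controls at 0.25-4d (circles, 13 rats), 5-8d (squares, 4 rats) and 9-14d (triangles, 6 rats), with 95% confidence intervals. Filled symbols are called changed, dotted lines mark a 2-fold change, and the left panel has a longer scale than the right: only Ostn at 5-8d and 9-14d and Il15 at 9-14d are filled, at -4.83, -4.29 and -1.04.

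The other 7 genes were not called in any of the 6 comparisons with the controls or between durations. Of their 42 values, 0 had an adjusted p below 0.05 in the moderated test, deposited against the controls and rebuilt between durations. An unadjusted p under 0.05, rebuilt throughout, was found for 4, and the lowest adjusted p was 0.0557. Against the controls, 19 of 21 intervals lay within a 2-fold change in either direction. These intervals bound the change in measured signal. Whether the 7 probe sets stand above background was not tested, since no levels are given.

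Interleukin 6, released by contracting muscle and by immune cells, was the least precisely measured of the 7. Its probe set lies on chromosome 4 at 456799-461376, minus strand, and its within-group SD was 0.581, at the 97.7 percentile. The log2 change of Il6 was 0.52 at 0.25-4d (interval -0.10 to 1.15, adjusted p 0.407 in limma), -0.25 at 5-8d (interval -1.05 to 0.55, adjusted p 0.698) and 0.22 at 9-14d (interval -0.51 to 0.94, adjusted p 0.651). The first and the middle intervals are the 2 that reach beyond a 2-fold change. The difference of 5-8d from 0.25-4d was -0.77 (unadjusted p 0.0276, adjusted p 0.102), so its direction was not settled after adjustment.

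Leukemia inhibitory factor, an interleukin-6 family cytokine that supports motor neurons and muscle precursor cells, stayed within narrow limits of measured signal. Its probe set lies on chromosome 14 at 84887856-84890630, plus strand. The log2 change of Lif was -0.24 at 0.25-4d (SE 0.11, unadjusted p 0.0356, adjusted p 0.253 in limma), -0.13 at 5-8d (SE 0.14, adjusted p 0.554) and -0.24 at 9-14d (SE 0.12, adjusted p 0.132). The largest fall that its 3 intervals allow is 1.41-fold, at 9-14d.

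Among the neurotrophins, brain-derived neurotrophic factor acts through the receptor TrkB and neurotrophin 3 mainly through TrkC. The Bdnf probe set is placed on unlocalised sequence of chromosome 3 (3_random) at 929421-979996, plus strand, with 26 of 45 probes matching the RefSeq transcript. In order of duration, its log2 changes were 0.05 (SE 0.07), -0.05 (SE 0.09) and -0.05 (SE 0.08), with adjusted p-values of 0.794, 0.748 and 0.647 in limma. Against the controls, no interval of Bdnf reached beyond 1.18-fold, and its within-group SD of 0.14 was at the 4.98 percentile. The Ntf3 probe set lies on chromosome 4 at 162435781-162506961, minus strand. Its log2 changes were 0.12 (SE 0.10), -0.08 (SE 0.13) and -0.01 (SE 0.11), with adjusted p-values of 0.609, 0.682 and 0.974 in limma.

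Ngfr encodes p75, the receptor that binds all neurotrophins and their precursors and is known as a marker of Schwann cells that have lost contact with axons. Its probe set lies on chromosome 10 at 84262802-84281006, minus strand. The log2 change of Ngfr was 0.20 at 0.25-4d (SE 0.11, adjusted p 0.378 in limma), 0.18 at 5-8d (SE 0.14, adjusted p 0.397) and 0.01 at 9-14d (SE 0.13, adjusted p 0.935). In measured signal, its intervals allow a rise of at most 1.35-fold, 1.38-fold and 1.21-fold at these durations.

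Glial cell line-derived neurotrophic factor, a survival factor of motor neurons, binds the anchored receptor Gfra1, which signals through Ret or together with the adhesion molecule Ncam1. The Gdnf probe set lies on chromosome 2 at 57399274-57424030, plus strand. Its log2 changes were 0.04 (SE 0.10), 0.15 (SE 0.12) and -0.06 (SE 0.11) at the 3 durations, with adjusted p-values of 0.899, 0.398 and 0.699 in limma. The Gfra1 probe set lies on chromosome 1 at 264614329-264876176, minus strand, with an SD of 0.316. Its log2 change was -0.03 at 0.25-4d (SE 0.17), -0.51 at 5-8d (interval -0.94 to -0.08, unadjusted p 0.0228, adjusted p 0.0765) and -0.12 at 9-14d (SE 0.19, adjusted p 0.632). The lower value at 5-8d than at 0.25-4d (-0.48, unadjusted p 0.0123, adjusted p 0.0557) was the nearest of the 7 genes to the threshold. Its adjusted p was 0.0499 when adjusted over only the probe sets with a gene symbol, with a difference below 2-fold.

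**Figure D2:**
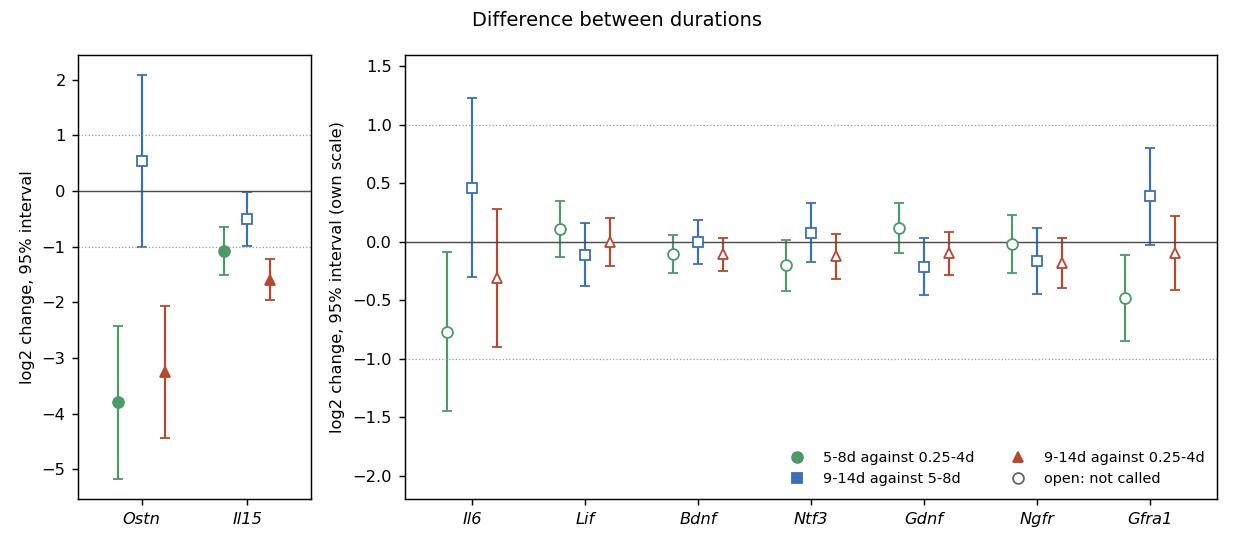
Mean log2 difference between durations for each gene, with 95% confidence intervals: 5-8d against 0.25-4d (circles), 9-14d against 5-8d (squares) and 9-14d against 0.25-4d (triangles). Filled symbols are called changed and dotted lines mark a 2-fold difference: Ostn (-3.80 and -3.26) and Il15 (-1.09 and -1.59) are filled in both comparisons with 0.25-4d, and no gene is filled for 9-14d against 5-8d.

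Read as a group, the 9 genes had a median log2 change of 0.05 at 0.25-4d, -0.13 at 5-8d and -0.06 at 9-14d, where the medians of all probe sets were -0.01, -0.04 and -0.07. Their median SE of 0.111, 0.142 and 0.128 was close to the 0.107, 0.136 and 0.123 of all probe sets. The genes themselves spread widely, from an SD of 0.14 for Bdnf to 1.17 for Ostn, while the median SD in the table was 0.203. The largest group ran from 6 h to 4 days, and how much of the spread its different times hold was not tested.

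**Figure D3:**
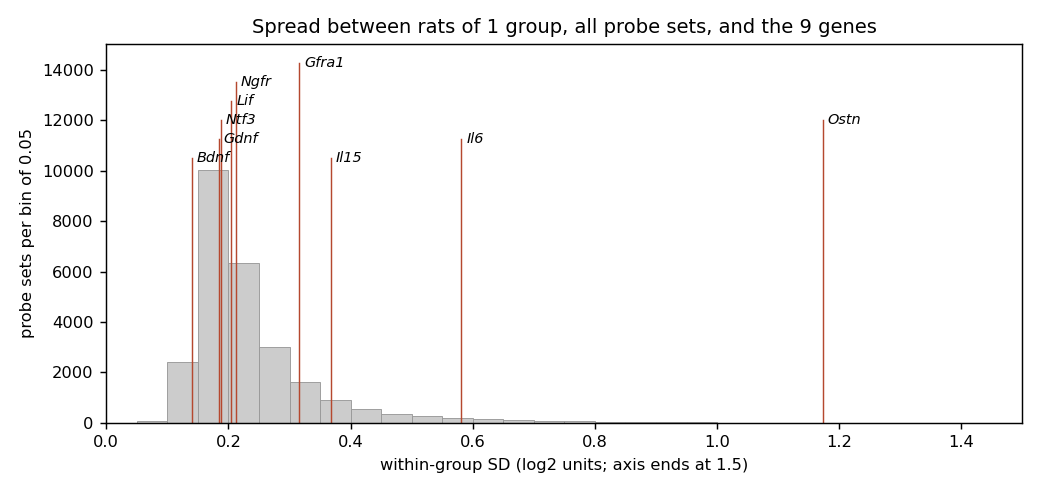
Number of probe sets by within-group SD (moderated and pooled over the groups) on the log2 scale, in bins of 0.05 up to 1.5, with a line for each of the 9 genes. The median of all probe sets is 0.203, Bdnf lies on the left of the peak at 0.14, and Il15 (0.368), Il6 (0.581) and Ostn (1.17) lie in the right tail.

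Ligands and receptors of these pathways, with the 9 genes among them, were counted from lists by symbol. Counted were probe sets with an adjusted p below 0.05 at any fold change. Over all probe sets, 1.49% were higher and 2.06% lower by this rule at 0.25-4d, 14.9% higher and 11.4% lower at 5-8d, and 17.3% higher and 18.2% lower at 9-14d. Among the 4 neurotrophin probe sets, 0 passed at 0.25-4d and 1 was lower at each later duration. It was Ntf4, a further TrkB ligand, with log2 changes of -0.35 (adjusted p 0.074 in limma), -0.47 (adjusted p 0.0132) and -0.44 (adjusted p 0.00881).

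Of the 9 probe sets of neurotrophin receptors and co-receptors, 1 was higher at every duration, and those lower at 9-14d included Sorcs3, a sortilin relative (log2 -0.51, adjusted p 0.00238 in limma). The higher one was Sort1, sortilin, which binds neurotrophin precursors together with p75. Its log2 changes were 0.95 (SE 0.19, adjusted p 0.00418 in limma), 0.95 (SE 0.25, adjusted p 0.00511) and 1.24 (SE 0.22, adjusted p 9.71e-05), the last being a called 2.36-fold rise. Its partner Ngfr did not pass at any duration, as given above.

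In the GDNF system, 1 of 4 ligand probe sets passed at each later duration. Nrtn, neurturin, was lower at 9-14d (log2 -0.49, adjusted p 0.00589 in limma), and Artn, artemin, was higher at 5-8d (0.42, adjusted p 0.0487). Of the 6 receptor probe sets, 1 was lower at 0.25-4d, 1 was higher and 1 lower at 5-8d, and 1 was higher and 2 lower at 9-14d. Ret, the signalling chain for GDNF, was the lower one throughout (log2 -0.66, -0.47 and -0.85, adjusted p 0.00412, 0.041 and 9.69e-05 in limma), joined at 9-14d by Gfra4. The higher one was Ncam1, the neural cell adhesion molecule, with log2 changes of -0.09 (adjusted p 0.925), 2.51 (adjusted p 4.32e-06) and 3.00 (adjusted p 2.16e-08). The later values are a 5.68-fold and a 7.99-fold rise over the controls. Tested directly, Ncam1 at 9-14d did not differ from its value at 5-8d after adjustment. Gfra1 beside it had -0.03, -0.51 and -0.12, none of which passed.

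Around Il6 and Lif, 0 of the 8 probe sets of the cytokine family were higher at any of the 3 durations, and 1, 1 and 2 were lower. Those lower at 9-14d included Clcf1, a further cytokine of the family (log2 -0.38, adjusted p 0.0174 in limma). The 7 receptor probe sets held 3, 2 and 2 higher and 0, 0 and 2 lower values, and the lower ones were the 2 probe sets of Lifr (log2 -0.52 and -0.59). Il6ra, the ligand-binding chain of the interleukin-6 receptor, was 3.22-fold higher at 0.25-4d (log2 1.69, SE 0.20, adjusted p 6.61e-06) and had log2 changes of 0.31 (adjusted p 0.41) and 0.27 (adjusted p 0.357) later. The fall of Il6ra from 0.25-4d was tested and was 1.38 on the log2 scale to 5-8d (adjusted p 1.93e-05) and 1.42 to 9-14d (adjusted p 6.44e-07), whereas the ligand Il6 was called in no comparison. Osmr, the oncostatin M receptor, had log2 changes of 0.72, 0.83 and 1.03 (adjusted p 0.0488, 0.019 and 0.00138), of which the last was called. The shared chain Il6st was higher by this test throughout, at 0.43, 0.96 and 0.66 (adjusted p 0.0263, 9.29e-06 and 0.00018).

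For Il15, the array table holds the ligand and Il2rg among 4 symbols of the ligand and its receptor chains. Il2rg had log2 changes of 0.07, -0.18 and 0.38 and did not pass (adjusted p 0.929, 0.694 and 0.248 in limma). For Ostn, the 7 probe sets of osteocrin and the natriuretic peptide system held 0 higher and 1, 2 and 4 lower values. Beside Ostn, Nppc, the C-type natriuretic peptide that binds the same clearance receptor, had log2 changes of -0.70 (adjusted p 0.00334), -1.10 (adjusted p 3.55e-05) and -1.10 (adjusted p 4.99e-06), the later ones called. Nppa (-0.40, adjusted p 0.0199) and Nppb (-0.28, adjusted p 0.0462), the atrial and brain natriuretic peptides, were lower at 9-14d. The clearance receptor Npr3 itself had -0.41, -0.58 and -0.22 (adjusted p 0.286, 0.0919 and 0.461), with no call.

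Among 21 further factors that muscle is known to secrete, 0, 1 and 5 were higher and 1, 6 and 7 lower at the 3 durations. Mstn, myostatin, which restrains muscle growth, had log2 changes of 0.86 (adjusted p 0.153 in limma), -2.49 (adjusted p 5.03e-05) and -1.89 (adjusted p 0.000279). Fst, follistatin, which binds myostatin and activins, had 0.05, 0.83 (adjusted p 0.055) and 2.04 (adjusted p 3.48e-06). Ccl2, a chemokine that attracts monocytes, had 0.20, 0.07 and 1.87 (adjusted p 0.0283 for the last). Between 9-14d and 5-8d, 0 of the 21 factors differed after adjustment in the rebuilt moderated statistic. Neither Fst nor Ccl2 (adjusted p 0.248) was therefore separated between these durations. Fold sizes of Ostn at 5-8d and 9-14d exceeded those of all 21.

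**Figure D4:**
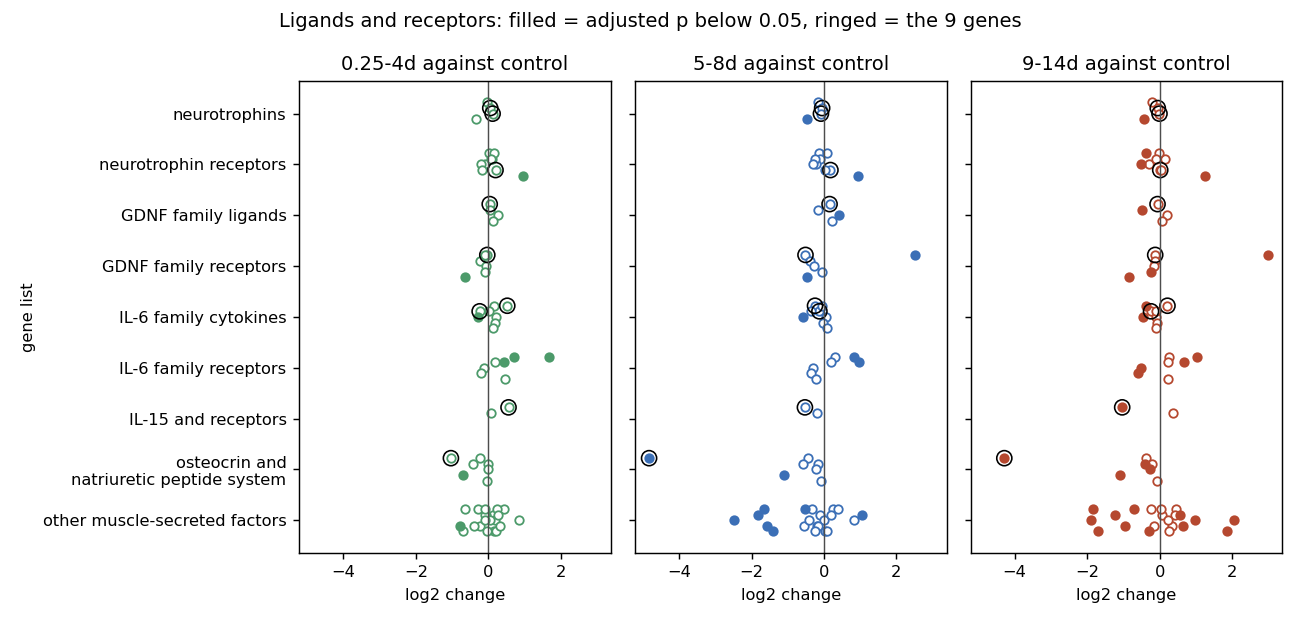
Log2 change against control of every probe set in 9 lists of ligands and receptors, with 1 panel for each duration. Filled points have an adjusted p below 0.05 and black rings mark the 9 genes: Ostn lies far to the left at 5-8d and 9-14d (-4.83 and -4.29) and Ncam1 far to the right (2.51 and 3.00), while the ringed neurotrophins and Gdnf lie near 0 in each panel.

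Markers of other cells in muscle moved at some of these durations, and their part in the changes of the 9 genes was not tested. Since the table has no levels, only changes can be given. At 0.25-4d, where Il6ra was higher and against which the later durations were also tested, 1 of 7 macrophage and leukocyte probe sets was higher, Cd163 (log2 1.01, adjusted p 0.046 in limma), with a median of 0.18 over the 7. No Schwann cell, fibroblast or endothelial probe set passed at that duration. At 5-8d, where Ostn was first called, 0 of 7 macrophage and leukocyte probe sets passed (log2 range -0.24 to 0.47, median -0.01), and 0 of 11 Schwann cell probe sets passed. At the same duration 4 of 6 fibroblast probe sets were lower, led by Col1a1 (log2 -3.23, adjusted p 0.000473 in limma), and 3 of 3 endothelial probe sets were lower, among them Cdh5 (log2 -0.38, adjusted p 0.0257). At 9-14d, where Il15 was called lower, 6 of 7 macrophage and leukocyte probe sets were higher (log2 range 0.68 to 1.80, median 1.22), with Lyz2 at 1.80, Cd68 at 1.51 and Ptprc at 1.31. The Lyz2 probe set is shared with Lyc2 in the annotation. At 9-14d 1 of 11 Schwann cell probe sets was higher (Mbp, 0.48, adjusted p 0.00478), 2 of 6 fibroblast probe sets were lower and 3 of 3 endothelial probe sets were lower. When 9-14d was tested directly against 5-8d, 1 of 7 macrophage and leukocyte probe sets was higher by adjusted p. In that test 0 of 11 Schwann cell, 0 of 6 fibroblast and 0 of 3 endothelial probe sets passed. Against 0.25-4d, 5 of 7 macrophage and leukocyte probe sets were higher at 9-14d.

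Markers of the muscle lineage were mixed. Of 4 satellite cell probe sets, 1 was higher and 2 lower at 5-8d and 1 higher and 3 lower at 9-14d, and the higher one was Myf5, a myogenic regulator, at log2 1.52 and 2.15. Of 9 muscle fibre probe sets, 0 passed at 0.25-4d, 1 was higher and 2 lower at 5-8d, and 5 were lower at 9-14d. The lowest were Myh7, slow myosin, at -3.73 for 9-14d (adjusted p 0.00481 in limma), and 1 of 3 probe sets of Myh2, at -3.44 for 5-8d (adjusted p 0.0367), with the other Myh2 probe sets between -0.92 and 0.11 at 5-8d and 9-14d. The 9 probe sets stand for 8 symbols, 3 of them for Myh2, so some carry more than 1 symbol. The Myh2 probe sets may therefore not all be specific to Myh2. Acta1 and Ckm, the skeletal actin and the muscle creatine kinase, fell by 0.29 and 0.21 on the log2 scale at 9-14d (adjusted p 0.00278 and 0.00385). For 9-14d directly against 5-8d, 0 of 4 satellite cell probe sets were higher and 1 was lower by adjusted p. Of the 9 muscle fibre probe sets, 0 passed in that test.

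Genes with the most similar course were found as the smallest Euclidean distance over the 3 log2 changes against control, which share the 5 controls, so the distances are descriptions over 3 values. Nearest to Ostn were Lgi2 (distance 0.74), Ky (0.96) and Aqp4 (0.98). Lgi2 encodes a secreted leucine-rich repeat protein, Ky a muscle peptidase of the Z-disc and Aqp4 the water channel of the fast fibre membrane. Their log2 changes were -1.53, -4.29 and -4.33 for Lgi2, -1.90, -4.91 and -3.89 for Ky, and -1.59, -4.63 and -5.07 for Aqp4. At 0.25-4d Lgi2 (adjusted p 0.0265 in limma) and Ky (adjusted p 0.0016) were already called lower. Aqp4 (adjusted p 0.054) and Ostn (adjusted p 0.424) were not called at that duration. Nearest to Il15 were Gadd45g (0.17), a stress-induced growth arrest gene, Klf10 (0.22), a transcription factor induced by TGF-beta, and Art3 (0.23), an ADP-ribosyltransferase family member. Their changes were 0.53, -0.61 and -0.89 for Gadd45g, 0.53, -0.46 and -0.83 for Klf10, and 0.43, -0.44 and -0.86 for Art3, above 0 at 0.25-4d and below 0 later as for Il15. In these 3 genes the value at 9-14d had an adjusted p of 0.0032, 0.018 and 0.00023 in limma, and none reached a 2-fold change.

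**Figure D5:**
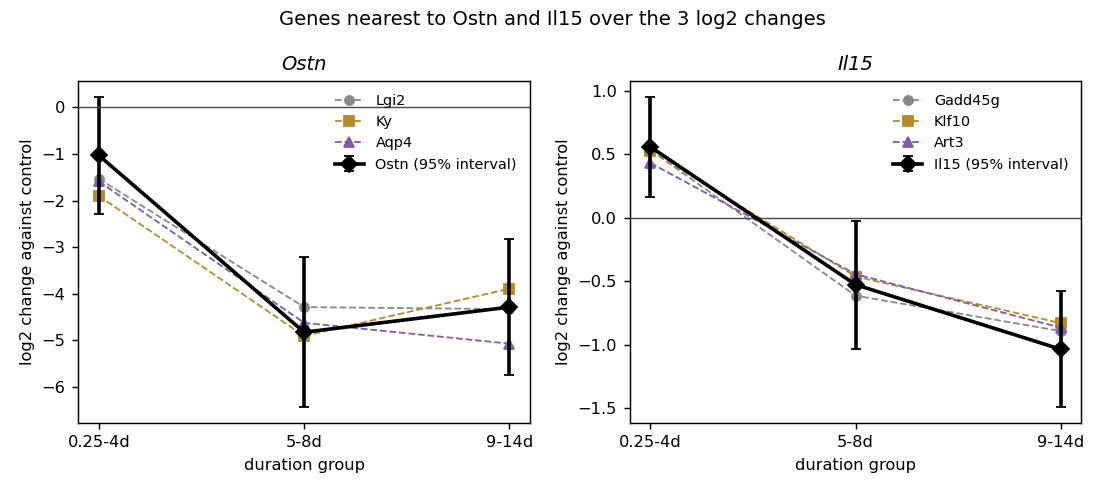
Log2 change against control at the 3 durations for Ostn (left) and Il15 (right) in black with 95% confidence intervals, and for the 3 nearest genes of each as dashed lines. The neighbours of Ostn lie inside its intervals at every duration, from -1.53 to -1.90 at 0.25-4d and from -4.29 to -4.91 at 5-8d, and those of Il15 cross 0 between 0.25-4d and 5-8d as it does.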

How the data were processed

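RNA of the proximal gastrocnemius of 28 rats was hybridised to Affymetrix Rat Gene 1.0 ST arrays. By the study's methods the authors used RMA normalisation and 1 linear model in limma with 3 comparisons to the controls. The submitters' processing notes name MAS5 and RMA, and the first line of the table calls its values a lowess normalised ratio. The authors deposited log2 changes and p-values adjusted by Benjamini-Hochberg for 26208 probe sets. These are the authors' own comparisons, used because the table holds no other values, with 0 columns of single arrays.

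The planned fit on single arrays was replaced by statistics rebuilt from the table. The adjustment was undone, and p-values were turned into moderated statistics at 28.3 degrees of freedom (24 residual and 4.26 prior), where the 3 comparisons gave alike within-group SDs. SEs, 95% intervals and comparisons between durations followed from the SD and the numbers of rats, with Benjamini-Hochberg adjustment over all probe sets. SDs were fixed to within 0.326%. Rebuilt and deposited adjusted p-values differed by up to 0.018 (log10), with 0 calls changed and 1 value crossing 0.05. The steps were tested on simulated data with limma 3.58.1 in R 4.3.3. Analyses used Python 3.11.15, numpy 2.4.6, pandas 2.3.3 and scipy 1.17.1, and figures matplotlib 3.10.9.

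Named were the 9 genes, from each of 15 lists by symbol the called genes (at most 3, those with the largest change, or else the 1 with the lowest adjusted p) and the 3 probe sets nearest to each called gene. Sorcs3, Artn, Ret, Gfra4, Clcf1, Il6st, Lifr, Nppa, Nppb, Npr3, Il2rg, Cd163, Acta1 and Ckm were added after their values were seen, and a few genes that the lists hold are not reported here. The genes and lists were chosen with earlier results of these data known. The number of arrays limits the precision, and no batch is named in the labels. Alternatives are given in the closing section. RefSeq promoters of GRCr8 gave sequences only, and RGSC 3.4 positions are those of the table.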

Additional observations from a re-analysis of the deposited data

Results flagged for a closer look

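The changes of 2 genes against the same controls differed between durations when the difference itself was tested. The test was the moderated statistic rebuilt from the limma fit, with Benjamini-Hochberg adjustment. Ostn had a log2 difference of -3.80 (SE 0.67, adjusted p 0.000111) for 5-8d against 0.25-4d and of -3.26 (SE 0.58, adjusted p 6.72e-05) for 9-14d against 0.25-4d. Il15 had a log2 difference of -1.09 (SE 0.21, adjusted p 0.000334) for 5-8d against 0.25-4d and of -1.59 (SE 0.18, adjusted p 6.66e-08) for 9-14d against 0.25-4d.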

How the results depend on the processing

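The counts of the 9 genes called in the 6 comparisons were the same without a fold change minimum, at an adjusted p below 0.01, with adjustment over 3 comparisons together, over only probe sets with a symbol and without cross-hybridising probe sets. Over only probe sets with a symbol, Gfra1 had an adjusted p of 0.0499 for 5-8d against 0.25-4d (0.0557 over all), below a 2-fold difference. With adjustment over 3 comparisons together, Il15 had an adjusted p of 0.0378 for 0.25-4d against control (0.112 within the comparison). That change, a log2 value of 0.56, was also below 2-fold. Centring each comparison on the median of all probe sets changed 1 count, at 9-14d against control, from 2 to 1, since Il15 moved to -0.96. Centring also turned the sign of values close to 0, none of them called: Lif became 0.067 and Ngfr 0.0118 for 9-14d and 5-8d against 0.25-4d, respectively, Bdnf 0.0191, Ntf3 0.0661 and Gdnf 0.0126 for 9-14d against control, Bdnf 0.0299 for 9-14d against 5-8d, and Lyz2 0.0363 and Cd68 0.0312 for 5-8d against control. Without a fold change minimum the calls over all probe sets rose from 144, 1366 and 1343 to 929, 6869 and 9295 against control and from 702, 55 and 869 to 5575, 107 and 9307 between durations. For 9-14d against 5-8d they were 8 at an adjusted p below 0.01 and 232 with joint adjustment, and at 0.25-4d the stricter threshold gave 96. No paired analysis was possible because the groups share no animal number and no values of single rats were used, and for the latter reason leaving out each replicate in turn was not run. Signal over background is not in the table.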
